A study of Mus musculus with 16 samples.

Results

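The genes of the ionotropic and metabotropic receptors for glutamate and for γ-aminobutyric acid (GABA) were examined for 3 histone marks in mouse hematopoietic stem cells (HSCs). Members were chosen by symbol alone, in GENCODE M21 for the mm10 assembly, as every protein-coding gene of the Gria, Grik, Grid, Grin, Grm and Gabr series together with Gabbr1 and Gabbr2. The rule gave 47 of 21851 protein-coding genes, 26 for glutamate receptors and 21 for GABA receptors. The study performed chromatin immunoprecipitation followed by sequencing (ChIP-seq) for H3K4me3, H3K27me3 and H2AK119ub1 on HSCs of young and aged C57BL/6 mice, in 16 libraries that form 8 groups of 2. Young mice were 10 weeks old and aged mice 20 months old, and the study's methods describe the purchased animals as female. The mice carried no transgene or treatment in the labels. HSCs were sorted from bone marrow as c-kit+ and Sca-1+ cells without lineage markers (Lin-), which were also CD150+ and negative for CD34, CD48, Flt3 and IL-7 in the spelling of the labels. The peaks came as 1 pooled list per mark and age, 6 lists in all. There was therefore no replicate value for any gene, no difference was tested, and each comparison below is between lists. The question was which of these marks lie at genes of a neuronal program in young and in aged HSCs.

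Glutamate and GABA are the main excitatory and inhibitory transmitters of the brain. AMPA, kainate, delta and NMDA receptors are tetramers that form cation channels, GABA-A receptors are pentameric chloride channels, and the metabotropic glutamate (mGlu) and GABA-B receptors couple to G proteins. H3K4me3 is a mark of active or poised promoters, whereas H3K27me3 is written by Polycomb repressive complex PRC2 and H2AK119ub1 by PRC1, and in cells outside the nervous system many neuronal genes are held silent under the Polycomb marks.

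Promoters reached 1 kb up- and downstream of each start site of coding transcripts, and any peak with at least 1 bp inside one counted as a mark there. A gene body was the annotated span of the gene. The sequences just upstream of the gene start are shown for receptor genes marked in the largest number of lists, to compare their content of CpG dinucleotides. Also shown are those of the longest genes whose promoters were in none of the lists, Gria2 and Gabrg1. They were taken from RefSeq (build GRCm38.p6), 250 bases at most, on the strand of the gene from 5′ to 3′, without bases inside an annotated exon, and CG is in capitals wherever it occurs. Grid1 had no entry, and the Grin2d window lay inside an exon and is not printed. Of the 32851 windows of 250 bases in that table, 92.1% held at least 1 CG and the median number was 6.
Grm6 (chr11:50850435-50850684, plus strand): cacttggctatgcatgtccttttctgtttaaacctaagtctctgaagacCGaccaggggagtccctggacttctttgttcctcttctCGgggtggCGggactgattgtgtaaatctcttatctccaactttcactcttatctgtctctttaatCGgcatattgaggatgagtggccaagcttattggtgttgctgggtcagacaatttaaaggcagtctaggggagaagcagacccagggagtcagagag
Grik4 (chr9:42944494-42944621, minus strand): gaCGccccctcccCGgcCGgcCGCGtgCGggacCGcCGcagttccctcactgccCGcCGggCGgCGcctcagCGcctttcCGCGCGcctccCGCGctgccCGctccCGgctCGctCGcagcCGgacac
Grin1 (chr2:25319188-25319437, minus strand): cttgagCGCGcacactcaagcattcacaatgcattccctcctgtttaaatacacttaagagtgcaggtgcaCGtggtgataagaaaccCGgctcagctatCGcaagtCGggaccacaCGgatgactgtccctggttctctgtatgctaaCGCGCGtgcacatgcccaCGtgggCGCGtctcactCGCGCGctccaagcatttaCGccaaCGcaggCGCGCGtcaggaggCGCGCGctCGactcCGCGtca
Gabrb1 (chr5:71657671-71657920, plus strand): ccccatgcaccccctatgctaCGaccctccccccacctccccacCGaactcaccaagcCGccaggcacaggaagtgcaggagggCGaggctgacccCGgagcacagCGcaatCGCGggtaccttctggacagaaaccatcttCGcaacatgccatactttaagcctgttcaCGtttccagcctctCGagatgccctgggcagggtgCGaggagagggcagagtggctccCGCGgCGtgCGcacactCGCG
Gria2 (chr3:80802836-80803085, minus strand): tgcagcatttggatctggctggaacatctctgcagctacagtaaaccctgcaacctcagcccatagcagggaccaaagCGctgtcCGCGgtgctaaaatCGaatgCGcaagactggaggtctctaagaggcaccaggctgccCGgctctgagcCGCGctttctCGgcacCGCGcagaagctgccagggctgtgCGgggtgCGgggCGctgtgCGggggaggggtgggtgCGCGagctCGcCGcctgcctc
Gabrg1 (chr5:70842618-70842867, minus strand): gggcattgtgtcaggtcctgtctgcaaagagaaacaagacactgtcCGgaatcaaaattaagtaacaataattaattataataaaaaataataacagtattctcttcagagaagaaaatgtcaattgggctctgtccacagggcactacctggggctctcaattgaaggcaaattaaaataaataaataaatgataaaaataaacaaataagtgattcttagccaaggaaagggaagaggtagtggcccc
The Grik4 stretch of 128 bases held 23 CG and the Grin1 window 27, and both genes carried Polycomb marks within 1 kb. The Gabrb1 window held 18 CG, and that of Grm6, whose promoter was marked in 4 lists, held 4. The Gria2 window, at an AMPA receptor gene without any promoter peak, held 19 CG, and the Gabrg1 window held 1. Within the printed windows, a high CpG content was thus present at a gene start in none of the lists. A low one was present at the marked Grm6. Over 1 kb on either side of the gene start the order was the reverse. The ratio of observed to expected CpG there was 0.6143 for Grm6 and 0.5602 for Gria2. Among these few windows, the number of CG did not separate marked from unmarked genes. All receptor genes are compared by their CpG ratio further below. There, promoter H3K27me3 was more frequent at genes with a ratio of at least 0.6 than at the others. The shares were 92.3% against 67.6% in young and 69.2% against 41.2% in aged HSCs. Peaks overlapped the printed windows of 2 genes. The Grin1 window was overlapped by young H3K27me3 and by aged H2AK119ub1, and the Grm6 window by aged H3K4me3 and aged H2AK119ub1. At the other printed genes with promoter marks, the peaks lay elsewhere within 1 kb of a start site. For Gabrb1 that start site is 41819 bp inside the annotated span, so the printed window is not its marked promoter.

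Further stretches show regions that were listed at both ages, and they were chosen after their values were seen. The stretch of Gabrb1, of 212 bases, is the part common to the young and aged H3K4me3 peaks at its promoter, the only receptor promoter with H3K4me3 in both lists. The stretch of Grik4, of 194 bases, is the part of an intronic H2AK119ub1 region common to both ages, the nearest such region to a start of that gene. Young H3K27me3 overlapped both stretches and aged H3K27me3 neither.
Gabrb1 (chr5:71700831-71701042, plus strand): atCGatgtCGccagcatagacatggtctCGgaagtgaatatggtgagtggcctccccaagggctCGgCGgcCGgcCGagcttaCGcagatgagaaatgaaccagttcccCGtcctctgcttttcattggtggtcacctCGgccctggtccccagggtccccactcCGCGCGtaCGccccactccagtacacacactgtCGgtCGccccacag
Grik4 (chr9:42942746-42942939, minus strand): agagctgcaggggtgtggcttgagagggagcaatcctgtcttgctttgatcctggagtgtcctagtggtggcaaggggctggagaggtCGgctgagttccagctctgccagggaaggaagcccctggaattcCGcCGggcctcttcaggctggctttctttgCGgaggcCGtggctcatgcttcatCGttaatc

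The cell type of the labels was checked first. Of 14 genes of the HSC program, 11 had H3K4me3 at the promoter in young and 10 in aged HSCs. Mecom, Hlf and Meis1 had it at both ages, and Gata2 and Lmo2 in young HSCs only. Among the genes of the sort markers, Kit had it in aged HSCs only, and Ly6a (Sca-1) and Slamf1 (CD150) at neither age. Of the 14 genes, 1 (Erg) had H3K27me3. Of 8 general neuronal genes such as Tubb3 and Nefl, 1 had H3K4me3 in young and 0 in aged HSCs, and 6 and 4 had H3K27me3. Of 12 lineage genes outside the gate, Ebf1 alone carried H3K4me3, at both ages. The lists held 11371 young and 6723 aged H3K4me3 peaks, 63142 and 20419 H3K27me3 peaks, and 2593 and 17768 H2AK119ub1 peaks. For H3K4me3, where the pileup could be recovered, the lowest background was 3.704 reads in the young and 3.523 reads in the aged list, and the highest pileup 62 and 89 reads. In a bulk library, a mark in few of the cells and a weak mark in all of them cannot be told apart.

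H3K27me3 was the mark of the receptor genes. It lay at the promoters of 35 of the 47 genes in young HSCs, where 16.0% of all protein-coding genes carried it, and at 23 in aged HSCs, where 8.24% did. H3K4me3 lay at 4 receptor promoters in young HSCs (all genes 33.8%) and at 5 in aged HSCs (all genes 23.3%). H2AK119ub1 lay at 2 in young HSCs (all genes 1.91%) and at 14 in aged HSCs (all genes 14.0%). The receptor genes thus stood above all genes for H3K27me3 and below them for H3K4me3 at both ages. Aged H2AK119ub1 was also listed at a higher share of them, 29.8%, than of all genes.

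**Figure D1:**
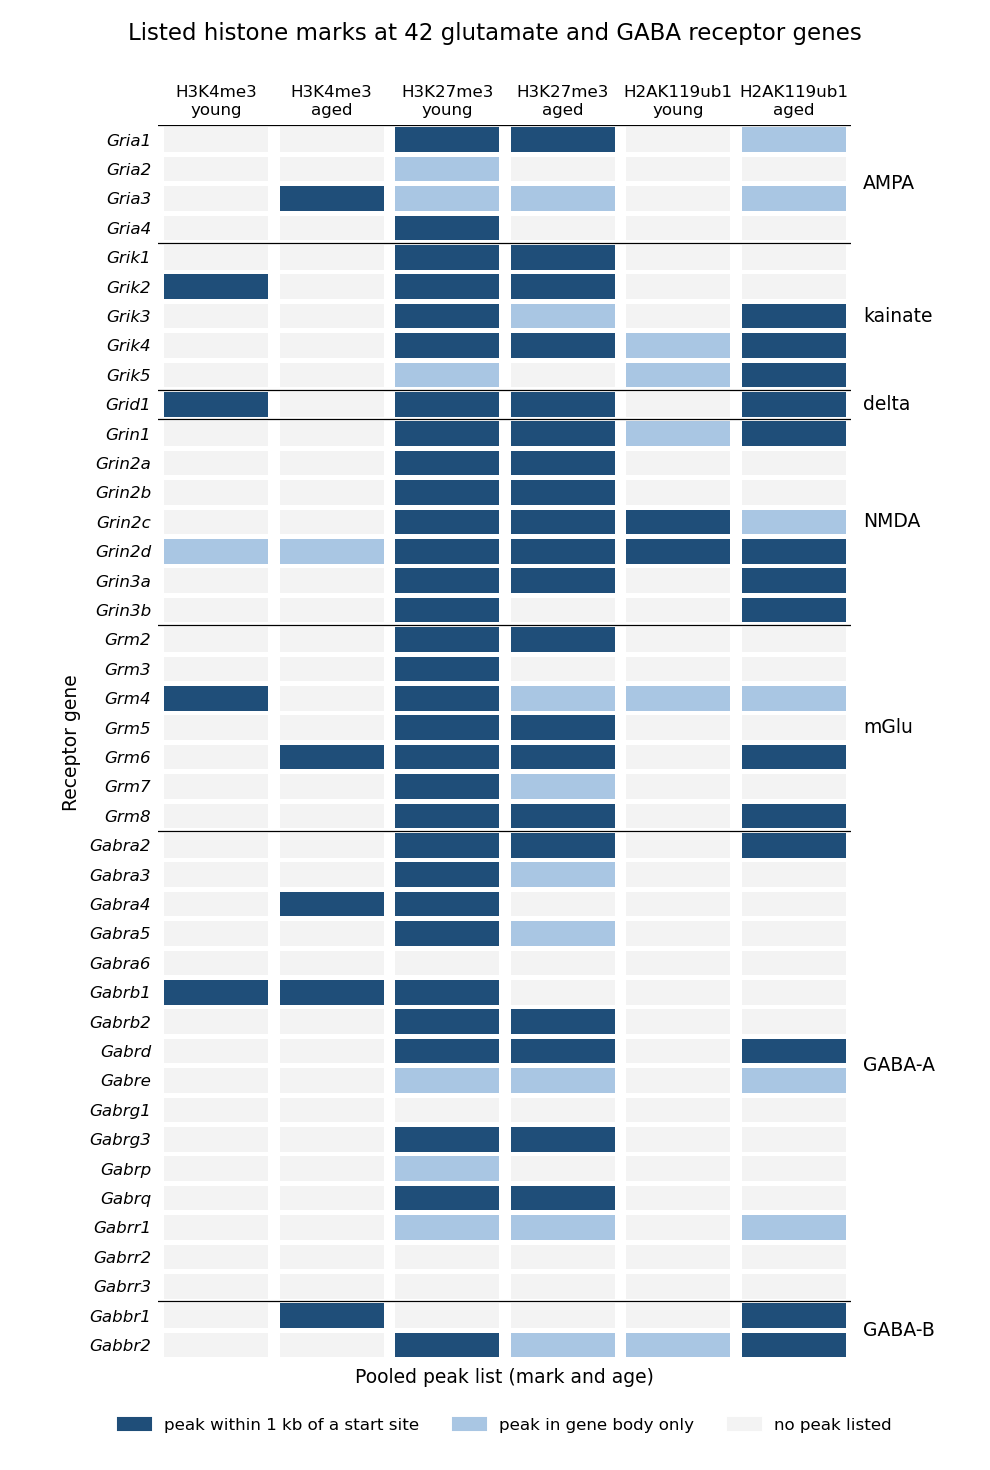
Marks listed at 42 of the receptor genes (rows, grouped by family) in the 6 pooled lists (columns). Dark cells have a peak within 1 kb of a start site, light cells a peak in the gene body only and grey cells no peak. Of the H3K27me3 cells, 31 are dark for the young and 20 for the aged list, and of the H3K4me3 cells 4 and 5.

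The families differed. All 7 NMDA receptor genes and all 8 mGlu genes had H3K27me3 at the promoter in young HSCs, and 6 and 5 had it in aged HSCs. NMDA receptors need the glycine-binding subunit Grin1 together with Grin2a to Grin2d, which bind glutamate, and Grin1 and all of the Grin2 genes were marked at both ages. Among the mGlu genes, Grm5, which couples to phospholipase C, was marked at both ages, as were Grm2, Grm6 and Grm8, while Grm3, Grm4 and Grm7 were listed in young only. Of the 5 kainate receptor genes, 4 were marked in young and 3 in aged HSCs. AMPA receptors carry most fast excitation, and of their 4 genes Gria1 and Gria4 were marked in young HSCs and Gria1 in aged HSCs. In total H3K27me3 was listed at 23 of 26 glutamate receptor promoters in young and at 17 in aged HSCs.

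GABA receptor genes carried the mark less often. H3K27me3 lay at 12 of 21 promoters in young and at 6 in aged HSCs. The α and β subunits form most of the GABA-A channel and its transmitter sites, and of these Gabra2 and Gabrb2 were marked at both ages, Gabra3, Gabra4, Gabra5 and Gabrb1 in young only, and Gabra6 in neither. Gabrd, a subunit of extrasynaptic receptors, Gabrg3 and Gabrq were marked at both ages. The γ subunit gene Gabrg1 was in no list. The rho subunits, known from the retina, had no promoter mark in any of the 3 genes. Of the GABA-B pair, which works as a heterodimer, Gabbr2 was marked in young HSCs and Gabbr1 at neither age.

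**Figure D2:**
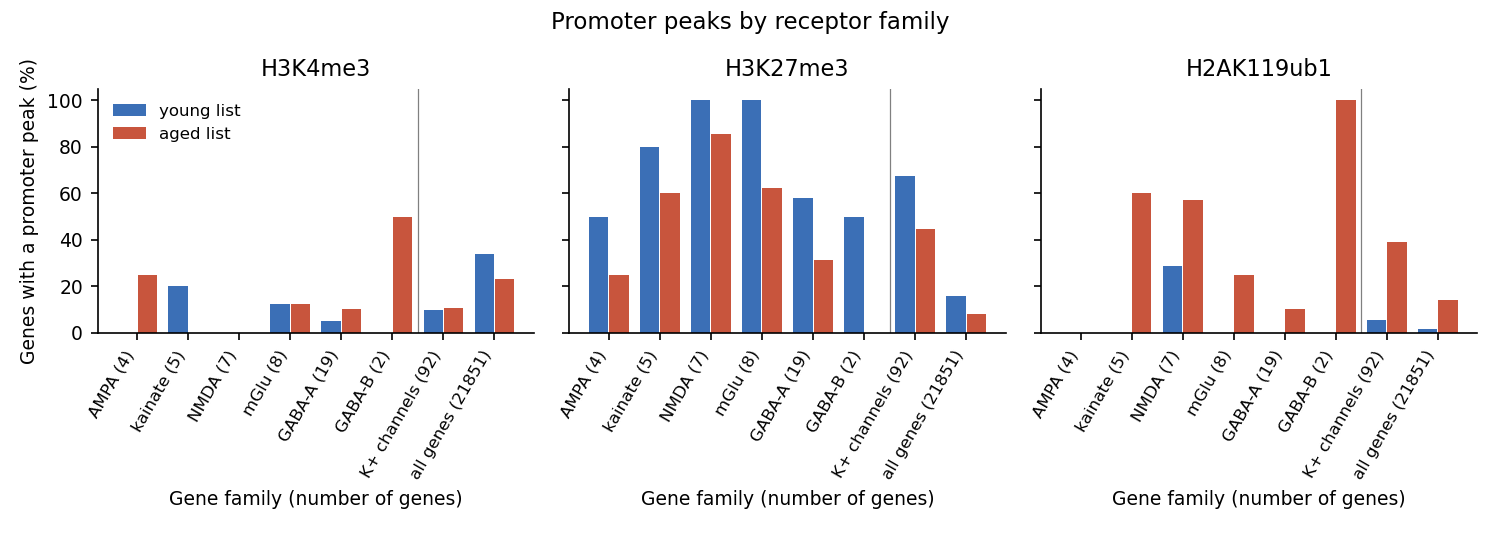
Share of genes with a peak within 1 kb of a start site (y axis, %) by receptor family, for each mark and for the young and aged lists, beside 92 potassium (K+) channel genes and all 21851 protein-coding genes. The number of genes stands beside each name. The NMDA and mGlu families reach 100% for H3K27me3 in young HSCs, against 16.0% of all genes, and no NMDA receptor promoter had H3K4me3.

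Since these genes are long, with a median of 138253 bp against 17380 bp for all genes, the gene bodies were read beside other long genes. In young HSCs 41 receptor gene bodies held H3K27me3 (all genes 21.2%), and 32 did at the older age (all genes 12.5%). H3K4me3 lay in 6 bodies in young and 5 in aged HSCs (all genes 32.0% and 21.4%), and H2AK119ub1 in 7 and 21 (all genes 4.11% and 22.1%). Among the 26 receptor genes of at least 100 kb, all 26 held H3K27me3 in young and 22 in aged HSCs, where 46.3% and 32.9% of the 2484 protein-coding genes of that length did. The counts of H3K27me3 thus stood above those of other long genes. For H2AK119ub1, 2 of the long receptor genes in young and 11 in aged HSCs were marked, against 9.02% and 48.2% of long genes, so that the counts for this mark lay near those of other long genes. H3K4me3 was found in 4 and 2 of them, against 45.2% and 33.2%.

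Measured as length, H3K27me3 covered 285.34 kb of the receptor gene bodies in young HSCs, 2.28% of their summed span, and 55.807 kb or 0.446% in aged HSCs. Over all protein-coding genes the shares were 1.82% and 0.44%. For receptor genes of at least 100 kb they were 2.06% and 0.375%, against 1.53% and 0.33% for all genes of that length. The summed span of the receptor genes was thus covered at a density near that of all genes. At the long receptor genes it was above that of all long genes, more so in young HSCs. The number of genes with the mark and the coverage near the start were higher than for all genes. In bins of 1 kb, young H3K27me3 covered 39.0% of the bin from 1 to 2 kb downstream of the gene start (all genes 8.19%) and 5.27% of the stretch from 10 to 20 kb (all genes 2.21%). In aged HSCs the same bin was covered to 8.29% (all genes 2.60%), and it was again the highest. Aged H2AK119ub1 was highest in the bin from 0 to 1 kb, with 5.43%, where all genes peaked at 3.11% in the next bin.

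**Figure D3:**
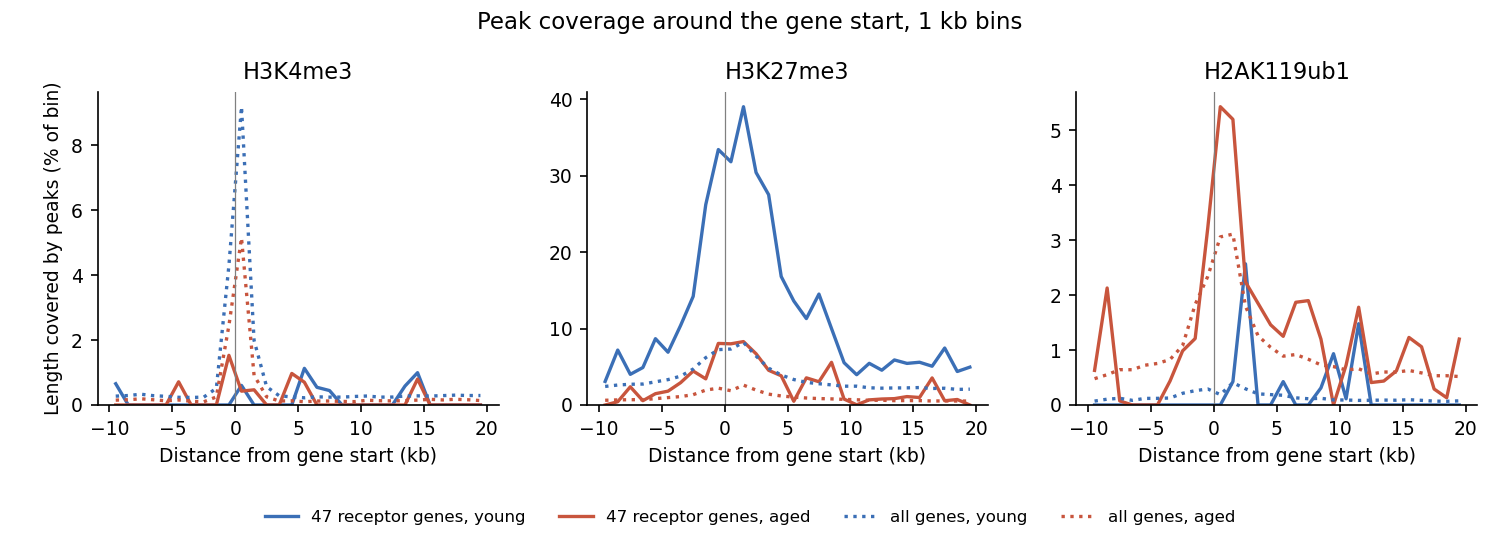
Share of each 1 kb bin covered by peaks (y axis, %) against the distance from the annotated gene start (x axis, kb), for the 47 receptor genes (solid) and all protein-coding genes (dotted) in the young (blue) and aged (red) lists. H3K27me3 at receptor genes reaches 39.0% in young and 8.29% in aged HSCs, whereas the H3K4me3 peak of all genes at the start (9.19% young) is nearly missing.

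The length was unevenly shared, and the kainate receptor genes held the most, 6.18% of their summed bodies in young HSCs. Grik3 and Grik4 encode a low-affinity and a high-affinity kainate receptor subunit. Over body and promoter, Grik3 (chr4:125490700-125714173) had 59737 bp of H3K27me3 in 93 peaks in the young list and 15773 bp in 31 peaks in the aged list. Young peaks lay under 24 of those 31. The widest young peak of any receptor gene, 4624 bp at 3.79-fold enrichment over background, ended 684 bp upstream of the Grik3 start. Grik4 (chr9:42518135-42944493) had 40227 bp in 80 peaks in young HSCs and 3441 bp in 8 peaks in aged HSCs, 7 of which overlapped a young peak. Young H3K27me3 covered 26.6% of the Grik3 body and 9.44% of the Grik4 body, mostly in introns, and aged H3K27me3 covered 7.06% and 0.807%.

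Gria1 (chr11:57011387-57330244), which encodes an AMPA receptor subunit, had 22334 bp in 46 peaks in young and 1375 bp in 3 peaks in aged HSCs. Grid1 (chr14:34820108-35583379), a delta receptor that binds cerebellins, had 19147 bp in 45 peaks in young and 3012 bp in 7 peaks in aged HSCs. Its strongest young peak, 1879 bp wide at 4.31-fold enrichment, was centred 1.1 kb downstream of the start. The order of the remaining genes by young length was led by Gabra3 on chromosome X (14422 bp young, 2991 bp aged), Grin2b (13409 and 1302 bp) and Grin1 (12022 and 2591 bp). Gabra3 encodes an α subunit of the GABA-A receptor and Grin2b an NMDA subunit prominent in the developing brain.

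Gabrb1 stood apart in this group, with 11179 bp in 17 peaks in young HSCs and no H3K27me3 peak in aged HSCs. Grin2c, an NMDA subunit of the cerebellum, had 9721 bp and 2682 bp, and its short body was covered to 51.5% in young and 13.2% in aged HSCs, the most of the genes named by length. The body of Grin1 was covered to 40.9% and 8.93%. The strongest H3K27me3 peak at any receptor gene was at the start of Grm2, an inhibitory mGlu autoreceptor, with 4.36-fold enrichment over 953 bp in young HSCs, and 3.56-fold over 1196 bp in aged HSCs.

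**Figure D4:**
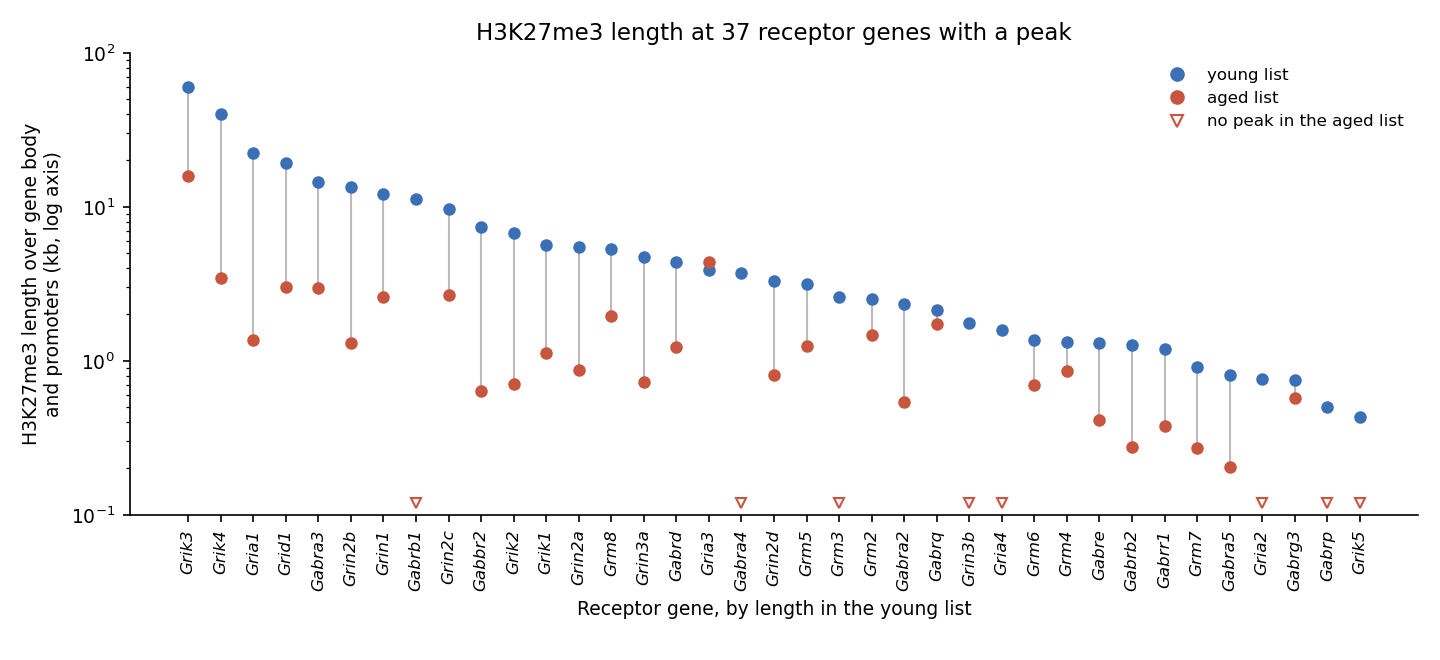
Length of H3K27me3 over gene body and promoters (y axis, kb, log axis) in the young (blue) and aged (red) lists for 37 of the receptor genes with a peak, ordered by the young length. Open triangles mark the 8 genes without an aged peak. The young point is the higher at 36 genes, and Gria3 is the exception.

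Of the 41 receptor genes with a peak, 40 had more H3K27me3 length in the young list and 1 had more in the aged list. Over all genes, 4740 had more in young and 217 in aged HSCs. The exception was Gria3, an AMPA receptor gene (chrX:41400854-41678601), with 3884 bp in 10 young peaks and 4386 bp in 13 aged peaks, and 0 of the aged peaks overlapped a young one. The next longest in aged HSCs after Grik3 and Gria3 were Grik4, Grid1 and Gabra3. Individual peaks were weak at both ages. The median fold enrichment of the receptor peaks was 3.131 in young and 3.132 in aged HSCs, beside 3.095 and 3.131 in the whole lists, and the largest −log10 q-value was 5.175 in young and 3.511 in aged HSCs.

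**Figure D5:**
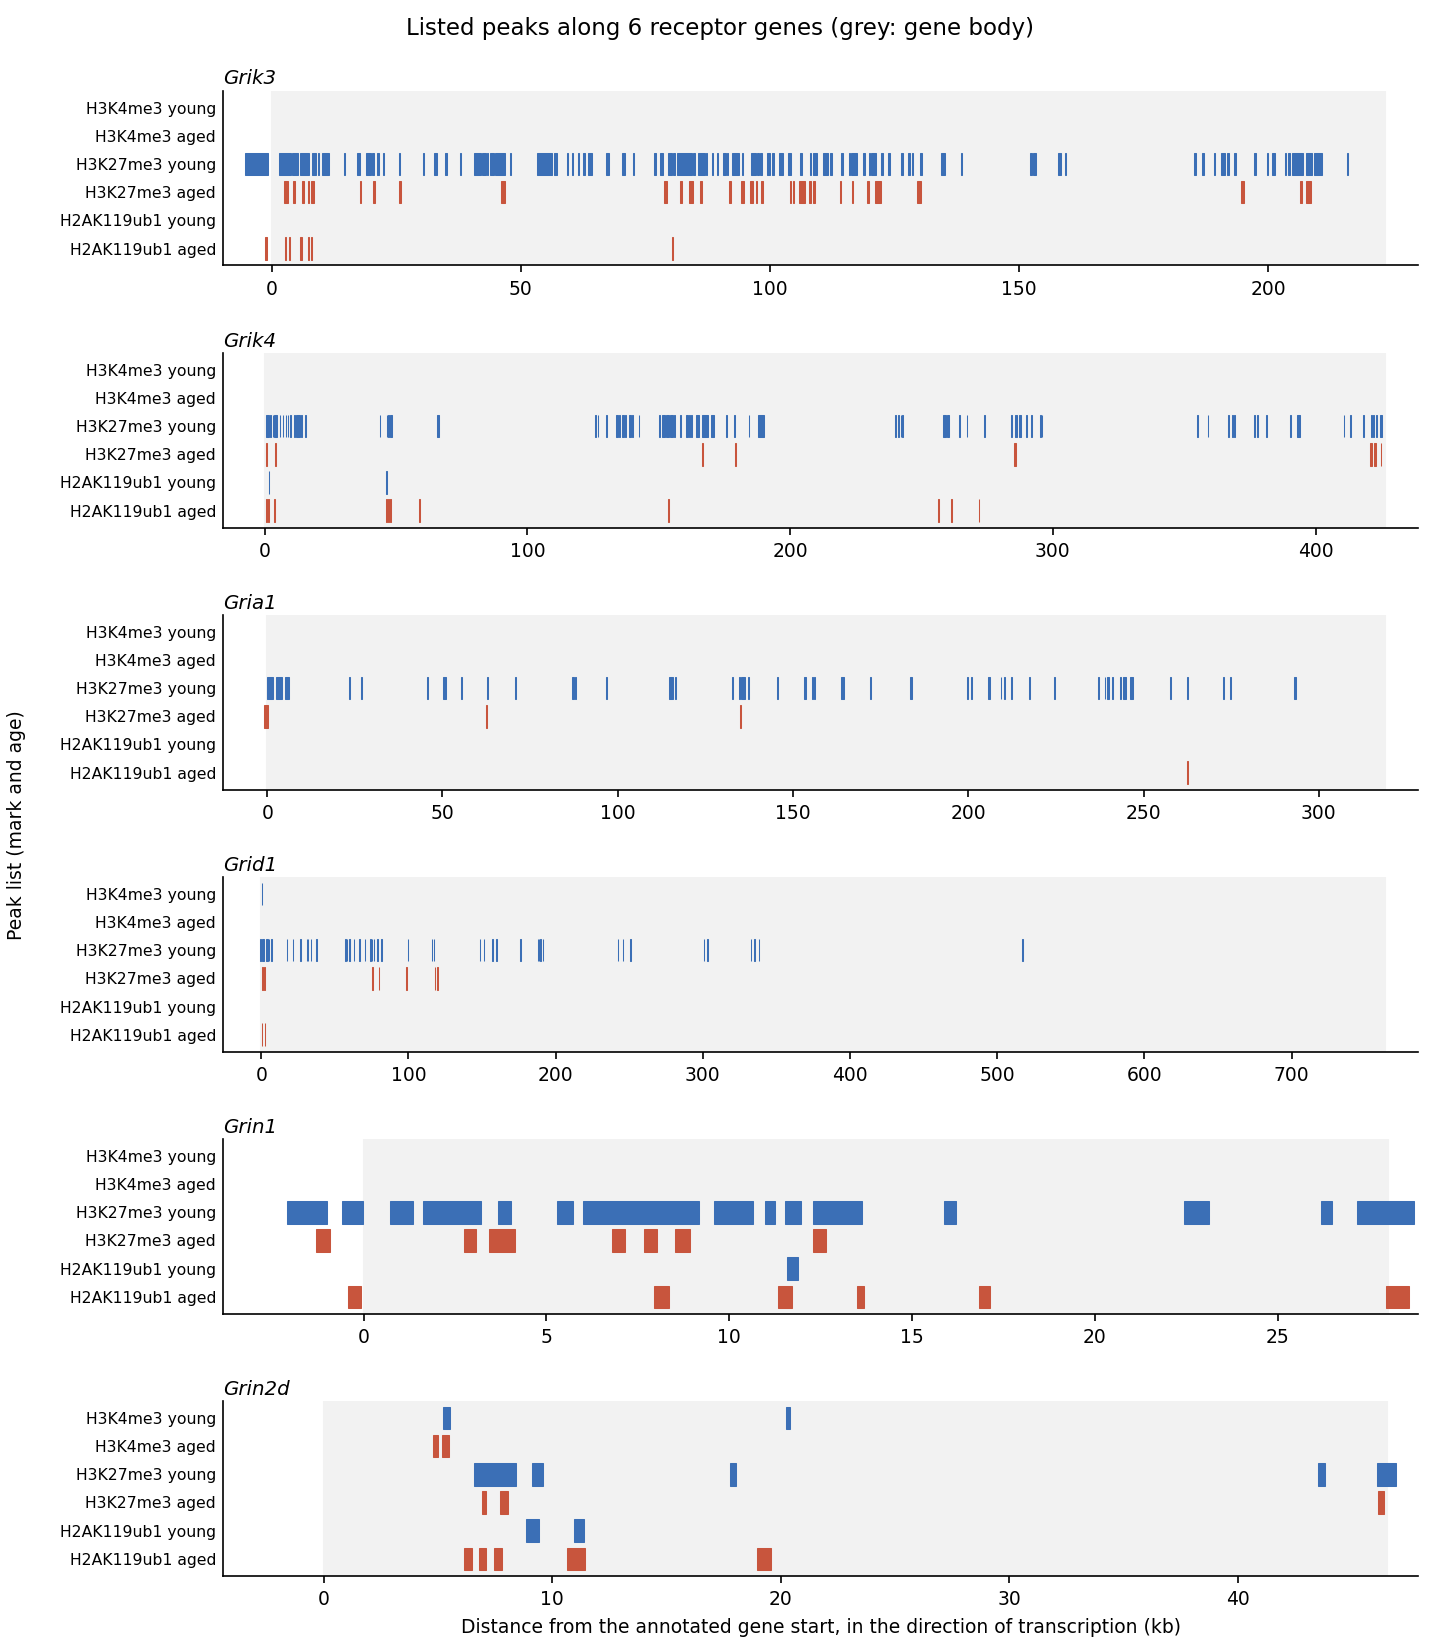
Peaks of the 6 lists along Grik3, Grik4, Gria1, Grid1, Grin1 and Grin2d against the distance from the annotated gene start in the direction of transcription (x axis, kb; each gene has its own scale). Blue bars are peaks of young lists, red bars peaks of aged lists and the grey area is the gene body, and a thin outline keeps the narrowest peaks visible. H3K27me3 peaks run through Grik3 (93 young, 31 aged) and Grik4 (80 young, 8 aged).

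Between the ages, promoter H3K27me3 was listed at 23 receptor genes in both lists (48.9%, all genes 7.83%). It was at 12 in the young list only (all genes 8.22%). It was at 0 in the aged list only, where 90 of all genes were. Of the young receptor promoters 65.7% were marked in aged HSCs as well, against 48.8% of all genes marked in young HSCs. The young-only promoters included those of Gabbr2, Gabra3, Gabra4, Gabra5, Gabrb1, Gria4, Grik3, Grin3b, Grm3, Grm4 and Grm7. They covered a median of 1085.5 bp of promoter in young HSCs and the kept ones 1338 bp, and the ranges, 317 to 2491 bp and 156 to 3232 bp, overlapped. The young list was longer. With the number of peaks set equal at both ages, 26 receptor promoters in young (all genes 11.2%) and 23 in aged HSCs (all genes 8.24%) carried the mark. There were 18 in both lists (all genes 6.92%), 8 in young only (all genes 4.31%) and 5 in aged only (all genes 1.31%).

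H3K4me3 peaks at receptor genes were few, and each was read singly. The widest was at Gabrb1, where a peak of 559 bp and 4.46-fold enrichment lay 629 bp from the start site in young HSCs and one of 212 bp and 3.31-fold lay 899 bp from it in aged HSCs. That start site is 41819 bp inside the annotated span of the gene. Gabra4 lies on the other strand, and the annotated 5′ ends of the genes are 195 bp apart. The aged H3K4me3 peak counted for Gabra4 (200 bp, 3.54-fold) lay 522 bp from the annotated 5′ end of Gabrb1, so it lay near the ends of both genes.

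In young HSCs alone, H3K4me3 was listed at Grid1 (284 bp, 3.40-fold), at an internal start site of the kainate receptor gene Grik2 (467 bp, 3.83-fold) and at Grm4, an mGlu autoreceptor gene (209 bp, 3.83-fold). All 4 young promoter peaks, that of Gabrb1 included, overlapped an H3K27me3 peak of the same age, and no receptor gene had H3K4me3 as its only promoter mark in young HSCs, whereas 30.8% of all genes had. In aged HSCs alone it was listed at Gria3 (220 bp, 4.20-fold), Gabbr1 (243 bp, 3.98-fold), Gabra4 and Grm6. Grm6, the mGlu receptor of retinal bipolar cells, had the strongest aged peak, of 271 bp and 4.64-fold, 164 bp upstream of its start. None of the 5 aged promoter peaks overlapped an aged H3K27me3 peak, and the sets of genes at the 2 ages shared Gabrb1 alone. That was 25.0% of the young receptor promoters, against 51.8% of all genes with the mark in young HSCs. Promoter H3K4me3 was in young only at 6.38% of receptor genes (all genes 16.3%) and in aged only at 8.51% (all genes 5.78%). These shares rest on few genes and were not tested.

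The recovered pileup at these peaks was 15 to 20 reads, against a list median of 20 in young and 19 in aged HSCs. Grin2d, an NMDA subunit gene, held H3K4me3 in its body at both ages and not at a start site of its own. Its recurring peak, of 319 bp in young and 315 bp in aged HSCs, covered a start site of the neighbouring gene Kdelr1, a receptor that returns proteins to the endoplasmic reticulum.

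H2AK119ub1 was listed at Grin2c and Grin2d promoters in young HSCs. At Grin2d (chr7:45831883-45878378) a young region of 447 bp covered an internal start site and another of 585 bp lay 905 bp from a start, and an aged region of 770 bp covered the same site with 3.56-fold enrichment. At Grin2c a young region of 474 bp lay 376 bp from a start site and no aged region did, the nearest lying 13031 bp away. The NMDA receptor genes thus held both young promoter cases, and in aged HSCs 4 of the 7 were marked, Grin1, Grin2d, Grin3a and Grin3b.

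In aged HSCs the mark was listed at 13 further promoters (all genes with the mark in aged only 12.5%). They belonged to Grik3, Grik4 and Grik5, to Grid1, to Grin1, Grin3a and Grin3b, to Grm6 and Grm8, to Gabra2 and Gabrd, and to both GABA-B genes. No AMPA receptor promoter was among them, and at Grik3 the mark covered 16 bp of the promoter. By length the aged mark was longest at Grik4, with 3908 bp in 11 regions against 555 bp in 2 regions in young HSCs. Grm4 followed, with 3319 bp in 9 regions against 337 bp in 1, none of them at a promoter.

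Gabbr2, which carries the GABA-B heterodimer to the membrane and couples it to G proteins, had 2664 bp in aged and 387 bp in young HSCs. Grin2d had 2411 bp and 1032 bp, and Grm8, an mGlu autoreceptor, had 1930 bp and 0 bp, with its widest region measuring 1062 bp. All 7 receptor genes with young H2AK119ub1 in the body had it in the aged list, as did 88.2% of all genes with it in young HSCs. In all, 22 receptor genes had more of the mark in the aged list and 0 had more in the young list, as 5099 and 185 of all genes did. The aged list was the longer one here. With equal numbers of peaks, 2 receptor promoters in young and 2 in aged HSCs carried H2AK119ub1 (all genes 1.91% and 2.92%), and 0 carried it at both ages (all genes 0.586%).

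Marks occurred together at some receptor promoters. H3K27me3 and H2AK119ub1 were both listed at 2 in young HSCs (all genes 1.65%) and at 9 in aged HSCs (all genes 4.99%), the latter being Gabra2, Gabrd, Grid1, Grik4, Grin1, Grin2d, Grin3a, Grm6 and Grm8. H3K4me3 and H3K27me3 were both listed at 4 in young HSCs (all genes 2.96%), Gabrb1, Grid1, Grik2 and Grm4, and at 1 in aged HSCs (all genes 0.792%). Of the 4, Grid1 had both Polycomb marks in aged HSCs, Grik2 had H3K27me3 alone, Gabrb1 had H3K4me3 alone and Grm4 had no promoter mark. Some of these calls rest on little overlap, as aged H3K27me3 covered 23 bp of the Grik2 and 90 bp of the Grin1 promoters. Grm6 was the single receptor gene with all 3 marks at 1 age, the aged (all genes 0.618%). Its aged H3K27me3 region reached 94 bp into the promoter, so it was not counted with an overlap of at least 100 bp.

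Peaks of both Polycomb marks that reached a shared receptor promoter overlapped each other at 1 of the 2 in young HSCs and at 6 of the 9 in aged HSCs. In receptor gene bodies 0.474% of the young and 5.85% of the aged H3K27me3 length was also covered by H2AK119ub1, against 1.86% and 20.7% in all gene bodies. Of the H2AK119ub1 length, 37.2% in young and 13.8% in aged HSCs was covered by H3K27me3, against 72.7% and 22.4%. Over whole gene bodies the Polycomb marks thus coincided less in length in these genes than in all genes, at both ages, and the difference was not tested.

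No promoter peak of any list was found at 9 receptor genes (all genes 45.0%), among them Gabra6, Gabre, Gabrg1, Gabrp, Gabrr1, Gabrr2, Gabrr3 and Gria2. All but Gria2 belong to the GABA-A family. Of the 9, 5 had no peak in the body either (10.6%, all genes 37.1%), among them Gabra6, Gabrg1, Gabrr2 and Gabrr3. A gene outside a list fell below the threshold of the caller, which does not show that the mark is absent.

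Most GABA-A genes lie in clusters, and the clusters on chromosomes 5, 7, 11 and X were compared. Young H3K27me3 covered 1.27%, 0.647%, 0.766% and 6.17% of their spans, and aged H3K27me3 covered 0.0389%, 0.219%, 0.0384% and 2.09%. In the chromosome 5 cluster, Gabra2, Gabra4 and Gabrb1 were marked in young HSCs and Gabrg1 was not, and in the chromosome 11 cluster Gabrb2 was marked while Gabra6 was not. Neighbours within a cluster thus differed. The X cluster, with Gabre, Gabra3 and Gabrq, was the most covered at both ages. Bodies of the 4 receptor genes on X were covered to 3.95% in young and 1.75% in aged HSCs, beside 5.97% and 1.6% for all genes on X.

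The 23 genes whose promoters had H3K27me3 at both ages had a median ratio of observed to expected CpG of 0.5403 within 1 kb of the gene start. The ratio was 0.4855 for the 12 young-only genes and 0.3405 for the 12 genes with H3K27me3 at neither age. All receptor genes together had 0.4597 and all protein-coding genes 0.474, so the receptor genes as a whole were not richer in CpG. The ranges overlapped widely, from 0.119 to 0.818 for genes marked at both ages and from 0.134 to 0.615 for those marked at neither. The ratio was taken at the annotated gene start alone, whereas a mark could lie at any start site. Some ratios were thus not those of the marked promoter. At Grin2d, with a ratio of 0.1733, the widest young H3K27me3 peak was centred 7.5 kb downstream of the gene start, at an internal start site. Of the 13 CpG-rich receptor genes, with a ratio of at least 0.6, H3K27me3 was listed at 12 in young and 9 in aged HSCs, where 17.1% and 9.39% of CpG-rich genes carried it. Of the 34 others it was listed at 23 and 14, where 15.5% and 7.65% of the other genes carried it. Aged H2AK119ub1 was listed at 9 of the 13, where 18.9% of CpG-rich genes carried it, and at 5 of the 34, near the 11.5% of the other genes.

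Lastly, the receptor genes were set beside related groups. Of 92 potassium channel genes, which also serve excitable cells, 67.4% had H3K27me3 at the promoter in young and 44.6% in aged HSCs, beside 74.5% and 48.9% of the receptor genes. H3K4me3 was at 9.78% and 10.9% of channel promoters, beside 8.51% and 10.6%, and aged H2AK119ub1 at 39.1% beside 29.8%. Receptors and channels were thus alike in these counts. Of 5 glycine receptor genes, 4 had promoter H3K27me3 in young and 1 (Glrb) in aged HSCs (all genes 16.0% and 8.24%). None of the 5 had the other marks.

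Among 56 genes for transmitter transport, synthesis and receptor partners, H3K27me3 lay at 32 promoters in young and 20 in aged HSCs. These were 57.1% and 35.7%, beside 16.0% and 8.24% of all genes. H3K4me3 lay at 10 and 9 (17.9% and 16.1%, all genes 33.8% and 23.3%). H2AK119ub1 lay at 4 and 20 (7.14% and 35.7%, all genes 1.91% and 14.0%). Transporters and enzymes had H3K27me3 at 11 and 7 of 19, including at both ages Gad1 and Gad2, which make GABA, and Slc32a1, which loads it into vesicles. Auxiliary subunits and ligands had it at 14 and 10 of 22, such as Cacng4 and Cbln1. Among 15 scaffold genes, H3K4me3 lay at 6 promoters in young and 5 in aged HSCs (40.0% and 33.3%, all genes 33.8% and 23.3%), those of Gphn and Dlg4 included. H3K27me3 lay at 7 and 3 of them and H2AK119ub1 at 1 and 5.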

How the data were processed

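ChIP-seq libraries of each mark and an input, 2 per age, were grouped by the antibody and age in the labels. The submitters' processing notes name Bowtie2, MACS2 2.2.6 and mm10. The authors deposited 1 peak list per mark and age, named as pooled, narrow for H3K4me3 and broad for H3K27me3 and H2AK119ub1. The names of the broad lists carry a single library number, so whether both libraries entered them is not given in the sources used here. For each peak the deposited lists give the fold enrichment over background (a ratio), the −log10 p-value and the −log10 q-value. They hold no reads, so the depth of the broad lists is unknown, and for H3K4me3 the pileup was recovered from fold and p-value. Peaks were joined to GENCODE M21 (mm10, identical in sequence to GRCm38) with Python 3.11.15, numpy 2.4.6, pandas 2.3.3, scipy 1.17.1 and pysam 0.24.0, checked against bedtools 2.31.1 and tested on simulated data, and plotted with matplotlib 3.10.9. Replicate values were not used here, so counts and covered lengths were described with no test. Named genes were those with promoter H3K4me3 at either age or young promoter H2AK119ub1, the 10 longest by young and 5 by aged H3K27me3, the 5 longest by aged H2AK119ub1, those with H3K27me3 in aged only, and those in no list, with others given by family. Results for 5 of the genes are not reported here one by one. Grm2, Kdelr1 and the strongest and widest peaks were picked out after their values were seen. The members and lists were chosen with earlier results of these data known. Alternatives changed the q-value threshold, the number of peaks, the promoter, the overlap and the body.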

Additional observations from a re-analysis of the deposited data

How the results depend on the processing

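The lists hold only what passed the caller, the aged H3K27me3 list is the shorter and the aged H2AK119ub1 list the longer, and the depth behind this is unknown. No paired analysis was possible because the peaks of a mark and age came as 1 list. Values are receptor genes at promoters and in bodies, and the share of body length covered. With −log10 q-values of at least 2, young H3K27me3 covered 1.43%, aged H3K27me3 was at 8 promoters and in 17 bodies (0.105%), young H2AK119ub1 at 1 and in 2 (0.00982%) and aged H2AK119ub1 at 5 and in 13 (0.0586%). At this threshold aged promoter H3K27me3 was at 17.0% of receptor genes and 3.28% of all genes. Promoter H2AK119ub1 was at 0.677% of all genes in young and 5.82% in aged HSCs. H3K27me3 with H2AK119ub1 was then at 1 young and 0 aged promoters, H3K27me3 in young only at 24 and H2AK119ub1 in aged only at 5. With at least 4, H3K4me3 was at 1 promoter and in 2 bodies in young (0.00606%) and at 2 and in 2 in aged (0.0061%), young H3K27me3 was at 5 and in 8 (0.0673%), and aged H3K27me3 and H2AK119ub1 at both ages were at 0, in 0 and covered 0%. Both pairs of marks were then at 0 promoters at each age, H3K27me3 in young only at 5 and H2AK119ub1 in aged only at 0. All 24 values moved. Promoter H3K4me3 was then at 24.8% of all genes in young and 15.7% in aged HSCs. Promoter H3K27me3 was at 2.18% of all genes in young, beside 10.6% of receptor genes, and at 0.0412% in aged HSCs. Promoter H2AK119ub1 was at 0.00915% and 0.188% of all genes. With equal numbers of peaks, young H3K4me3 was at 1 promoter (all genes 23.4%) and in 1 body (0.00447%). Young H3K27me3 then covered 1.04%, and aged H2AK119ub1 was at 2 promoters (all genes 2.92%) and in 7 bodies (0.0235%). H3K4me3 with H3K27me3 was at 1 young promoter and H3K27me3 with H2AK119ub1 at 2 aged promoters. H2AK119ub1 in aged only was at 2 (all genes 2.33%). With promoters of 500 bp on either side, aged H3K4me3 was at 3, aged H3K27me3 at 13, H3K4me3 with H3K27me3 at 0 in aged, H3K27me3 with H2AK119ub1 at 3 in aged and H3K27me3 in young only at 20. With 2.5 kb, young H2AK119ub1 was at 5, with H3K27me3 at 4, and H3K4me3 with H3K27me3 at 3 in aged. With the gene start alone, young H3K4me3 was at 1, young H2AK119ub1 at 0, and the pairs with H3K27me3 at 1 and 0. An overlap of 100 bp left H3K4me3 with H3K27me3 at 0 aged promoters. Bodies without promoter windows held H3K4me3 in 3 genes in young and 2 in aged. The causes were not tested. The starts of all annotated transcripts, an alternative chosen after seeing the data, moved 0 of 12 values.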
